A study of Mus musculus with 4 samples.

Results

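The p53 pathway and the BCL2 family were described through 10 genes of the RNA-sequencing of IL-12-treated mouse podocytes. The set held *Trp53*, 5 p53 targets (*Cdkn1a*, *Mdm2*, *Bax*, *Bbc3* and *Ccng1*) and 4 BCL2 family genes (*Bcl2*, *Bcl2l1*, *Bcl2l11* and *Mcl1*), while *Bax* and *Bbc3* belong to both groups. Each was found by its gene name in the deposited count matrix, and all 10 were present among its 54532 genes. The study examined the response of podocytes, the filtering cells of the glomerulus, to interleukin-12, a cytokine of antigen-presenting cells. The cells were MPC5, a mouse podocyte line that is conditionally immortalized. The IL-12 treatment group (2 libraries) received interleukin-12 at 400 ng/ml over 6 h, and the control group (2 libraries) was treated with saline. Both groups carried the same line and no other genetic change is labelled.

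p53 is a transcription factor that cells stabilize after DNA damage and other stress, and it drives genes that stop the cell cycle, repair DNA or start apoptosis. *Mdm2* is both a p53 target and the ubiquitin ligase that degrades p53, which closes a feedback loop. The BCL2 family sets the threshold of mitochondrial apoptosis: pro-survival members hold the pore-forming effectors in check, and BH3-only members bind and neutralize the pro-survival members. Podocytes are postmitotic in the kidney and are poorly replaced when lost. Conditionally immortalized mouse podocytes of this kind carry a temperature-sensitive viral large T antigen, a protein known to bind p53, and how much of it these cells still held was not tested.

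The sequence just upstream of the start sites is shown for 4 of the genes whose windows hold the matches described here. These are *Cdkn1a* and *Mdm2* for the p53 motif, and *Bcl2l11* and *Bbc3*, the genes that fell, for the forkhead motif. The windows of *Bax*, *Ccng1* and *Trp53* also hold a match of the p53 motif and are not printed. Capitals mark the matches. The sequences are from RefSeq (GRCm38.p6), written 5′ to 3′ on the strand of the gene: chr17:29090729-29090975 on the plus strand for *Cdkn1a*, chr10:117710759-117711008 on the minus strand for *Mdm2*, chr2:128125788-128126037 on the plus strand for *Bcl2l11* and chr7:16310011-16310260 on the plus strand for *Bbc3*. The *Bbc3* window lies before an alternative RefSeq start inside the gene as deposited.
Cdkn1a: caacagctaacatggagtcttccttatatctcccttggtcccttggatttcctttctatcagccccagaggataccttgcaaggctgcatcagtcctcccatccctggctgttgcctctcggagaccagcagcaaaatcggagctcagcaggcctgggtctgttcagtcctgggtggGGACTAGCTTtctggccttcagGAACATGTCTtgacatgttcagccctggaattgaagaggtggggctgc
Mdm2: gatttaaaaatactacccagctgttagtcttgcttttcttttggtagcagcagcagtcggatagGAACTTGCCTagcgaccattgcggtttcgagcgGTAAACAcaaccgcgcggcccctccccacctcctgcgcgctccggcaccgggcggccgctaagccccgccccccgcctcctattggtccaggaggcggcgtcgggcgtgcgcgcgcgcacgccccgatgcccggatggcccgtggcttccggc
Bcl2l11: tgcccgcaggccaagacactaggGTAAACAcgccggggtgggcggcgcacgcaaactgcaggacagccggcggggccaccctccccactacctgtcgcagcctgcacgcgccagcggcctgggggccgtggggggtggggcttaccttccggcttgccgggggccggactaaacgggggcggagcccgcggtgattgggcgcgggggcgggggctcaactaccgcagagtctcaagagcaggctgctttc
Bbc3: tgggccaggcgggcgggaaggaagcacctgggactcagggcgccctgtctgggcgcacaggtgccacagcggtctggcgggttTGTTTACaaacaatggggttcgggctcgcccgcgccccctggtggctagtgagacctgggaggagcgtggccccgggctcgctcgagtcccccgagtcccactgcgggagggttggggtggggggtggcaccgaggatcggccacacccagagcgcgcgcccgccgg

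The 10-base p53 motif, of which a pair makes up a p53 response element, was searched on both strands of 32851 RefSeq windows that ran from 250 bases before to 50 bases after a start. It was present in 8.36% of all windows and in 5 of the 16 windows of the 10 genes. Positions are counted from the RefSeq start of the window that holds the match, and some genes have further windows. *Cdkn1a* held GGACTAGCTT from position -73 to -64 and GAACATGTCT from -51 to -42, before its start at chr17:29090979. The window of a further *Cdkn1a* start, at chr17:29093769, held no match of the p53 motif. The 10 bases that follow the second match in *Cdkn1a*, TGACATGTTC, match the motif at 9 of 10 positions. After the other 5 matches this number was 3 for the first in *Cdkn1a*, 4 in *Bax*, 4 in *Ccng1*, 5 in *Mdm2* and 7 in *Trp53*. *Mdm2* held GAACTTGCCT from -186 to -177, *Bax* held AGGCAAGCTT from -201 to -192, *Ccng1* held GGGCAAGCCT from -185 to -176 and *Trp53* held GGACTTGCCC from -75 to -66. The forkhead core GTAAACA, or TGTTTAC on the other strand, was present in 3.65% of all windows and in 3 of the 16. It lay in *Bcl2l11* from -227 to -221, in *Bbc3* from -167 to -161 on the other strand and in *Mdm2* from -153 to -147. In all, 16 motifs were searched, and these were chosen for description after their matches were seen. The other 14 were CATG, a degenerate forkhead motif that also takes in the 3 matches above, the NF-kappaB motif, the SRE, AP-1, CRE, E2F and ETS motifs, the E-box CACGTG, the TEAD motif GGAATG, the SMAD motif CAGACA and its palindrome, the GC box GGGCGG and the CCAAT box. They matched in 0 to 10 of the 16 windows. A match is a stretch of letters, and binding was not measured.

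The libraries held 18355379 to 20098012 counts, and a level of 3 counts corresponds to 0.152 to 0.166 CPM (counts per 1000000 counts of the library, with the library scaled by edgeR's TMM factor). Chi-square per degree of freedom was 2.13 and 2.42 between libraries of a group and 16.4 to 19.7 between groups. Of the 10 podocyte markers, the slit diaphragm gene *Nphs1* had 0 to 1 counts and *Wt1* had 4 to 16 counts per library, so these defining markers were at or near 0. The summed markers gave 1974 to 1979 CPM in the control libraries and 1948 to 1969 CPM in the IL-12 libraries, nearly all of it from the cytoskeletal and surface markers *Synpo*, *Actn4*, *Cd2ap* and *Podxl*. The summed leukocyte and endothelial markers stayed between 0.106 and 0.663 CPM in every library. Tubule markers, nearly all of them *Lrp2*, summed to 632 to 658 CPM in the control libraries and 517 to 557 CPM in the IL-12 libraries. Mesangial markers summed to 67.7 to 68.6 and 69.3 to 79.8 CPM, of which *Pdgfrb* rose (log2 fold change 0.23, adjusted p = 0.00956, edgeR) and *Gata3* fell (-0.33, adjusted p = 0.0401, edgeR). The call of *Pdgfrb* was lost in 5 of 15 alternatives and that of *Gata3* in 6. The part of the shifts in these markers in the results was not tested.

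IL-12 treatment moved these 10 genes little. *Trp53*, *Mdm2*, *Bcl2* and *Mcl1* rose by 9.87% to 20.8%, the BH3-only genes *Bbc3* and *Bcl2l11* fell, and *Cdkn1a*, *Ccng1*, *Bcl2l1* and *Bax* did not pass the test. All 10 were among the 14095 genes tested. At an adjusted p below 0.05 (Benjamini-Hochberg adjustment of edgeR's quasi-likelihood test), 4 were higher, against 16.1% of all genes tested, and 2 were lower, against 14.4%. The 6 of 10 called in either direction stand beside 30.5% of all genes tested, and beside 43.1% of the 7998 genes of at least 20 CPM, the range in which all 10 lie. None passed the 2-fold limit that the study used, which 1.61% of all genes tested passed. The libraries of the groups did not overlap for 9 of the 10, all but *Bax*, and this was so for 62.9% of all genes tested. The median log2 fold change (IL-12 minus control) was 0.07 over the 10 genes and -0.0022 over all genes tested. In these bulk samples, fewer cells of a type and less RNA per cell cannot be told apart.

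**Figure D1:**
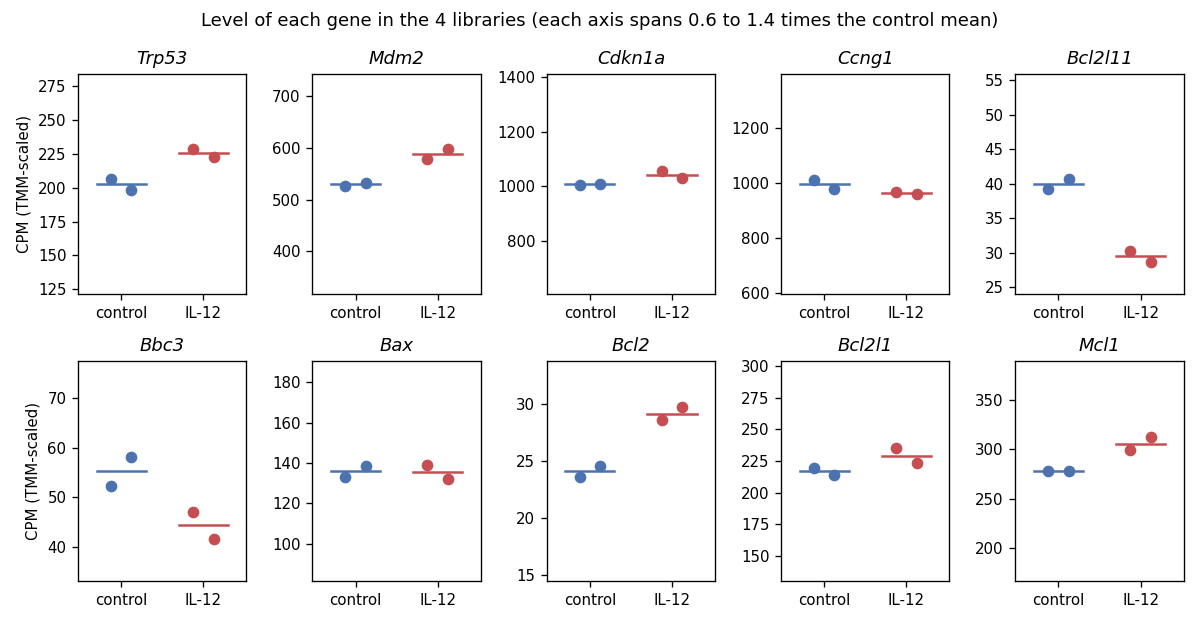
Level of each of the 10 genes in CPM in the 4 libraries, with 1 panel per gene, points for libraries and a line at the group mean. Each vertical axis spans from 0.6 to 1.4 times the control mean, so the panels can be compared. The points of *Bcl2l11* and *Bbc3* lie lower and those of *Bcl2* higher with IL-12, while the points of *Bax* overlap.

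*Trp53*, the gene of p53 itself, lies at chr11:69580359-69591873 on the plus strand (ENSMUSG00000059552). It stood at 207 and 198 CPM in the control libraries and at 228 and 223 CPM in the IL-12 libraries, which did not overlap. The log2 fold change was 0.16 (SE 0.04, 95% interval 0.08 to 0.24, adjusted p = 0.00347 in edgeR's quasi-likelihood test), a rise of 11.5%. The call was lost without control replicate 2 (0.13, adjusted p = 0.0600 by edgeR) and without IL-12 replicate 1 (0.14, adjusted p = 0.0623 by edgeR).

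*Mdm2* (ENSMUSG00000020184, chr10:117688875-117710758, minus strand), which encodes the ligase that degrades p53, had 527 and 532 CPM in the control libraries and 578 and 597 CPM in the IL-12 libraries. The group means were 529 ± 3.43 and 587 ± 13.7 CPM (SD, n = 2). Both IL-12 libraries were higher, with a log2 fold change of 0.15 (SE 0.03, adjusted p = 0.000587, edgeR's quasi-likelihood test), and this call was kept in 15 of 15 alternatives. *Mdm2* also carries both motifs in its printed window, the p53 motif and the forkhead core.

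The cell-cycle targets of p53 were the most abundant of the set. *Cdkn1a* (ENSMUSG00000023067, chr17:29090976-29100727, plus strand), the inhibitor p21 that halts cyclin-dependent kinases, had 1006 and 1009 CPM in the control libraries and 1057 and 1029 CPM in the IL-12 libraries. The groups did not overlap, but the log2 fold change of 0.05 (SE 0.03, 95% interval -0.0047 to 0.10) did not pass the test (adjusted p = 0.166, edgeR). Its counts were high, at 18637 to 20927 per library, and a rise larger than 0.10 on the log2 scale lay outside the interval. A gene of unclear type on the opposite strand, AC167363.2, overlaps *Cdkn1a* and had 602 counts in all against 77706, and reads of the pair cannot be told apart if strand was not used. *Ccng1* (ENSMUSG00000020326, chr11:40748552-40755311, minus strand), which encodes cyclin G1, had 1012 and 977 CPM in the control libraries and 968 and 961 CPM in the IL-12 libraries. Its log2 fold change of -0.04 (SE 0.03, 95% interval -0.10 to 0.01) did not pass (adjusted p = 0.237, edgeR), and it passed in 1 of 15 alternatives, with total counts as the scaling (-0.09, adjusted p = 0.0218, edgeR).

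**Figure D2:**
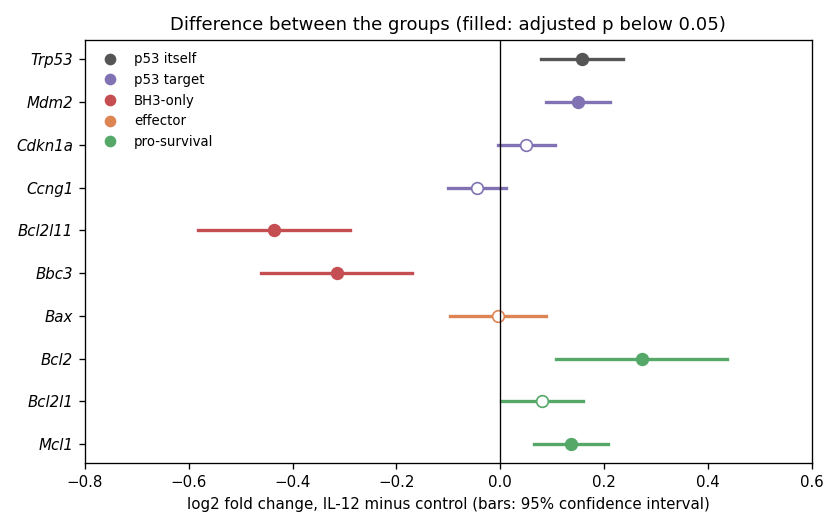
Log2 fold change (IL-12 minus control) of each gene with its 95% confidence interval, coloured by role and filled where adjusted p was below 0.05. *Bcl2l11* (-0.44) and *Bbc3* (-0.32) lie left of 0, and *Bcl2* (0.27), *Trp53* (0.16), *Mdm2* (0.15) and *Mcl1* (0.14) lie right of 0.

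The BH3-only genes had the largest changes of the 10. *Bcl2l11* (ENSMUSG00000027381, chr2:128126038-128162547, plus strand) encodes BIM, which binds the pro-survival proteins and can activate the effectors. It was counted 743 and 767 times with saline and 599 and 519 times with IL-12, or 39.2 and 40.6 against 30.3 and 28.7 CPM. Both IL-12 libraries were well below both control libraries. The level fell by 26.1%, with a log2 fold change of -0.44 (SE 0.07, 95% interval -0.58 to -0.29, adjusted p = 8.31e-05, edgeR's quasi-likelihood test), and the call was kept in 15 of 15 alternatives, in which the log2 fold change ranged from -0.48 to -0.35.

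*Bbc3* (ENSMUSG00000002083, chr7:16308393-16318205, plus strand) encodes PUMA, a BH3-only protein through which p53 can start apoptosis. It had 52.4 and 58.2 CPM in the control libraries and 47.1 and 41.6 CPM in the IL-12 libraries. The groups did not overlap, though the spread within each (SD 4.14 and 3.87 CPM) was wide beside the gap between the means of 55.3 and 44.4 CPM. The level fell by 19.6% (log2 fold change -0.32, SE 0.07, adjusted p = 0.00169, edgeR). The call was lost without IL-12 replicate 2 (-0.23, adjusted p = 0.0790, edgeR) and with no filter on low counts (-0.31, adjusted p = 0.0816, edgeR).

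*Bax* (ENSMUSG00000003873, chr7:45461697-45466898, minus strand), an effector that opens the outer mitochondrial membrane and a p53 target, was the gene whose groups overlapped. It had 133 and 139 CPM in the control libraries and 139 and 132 CPM in the IL-12 libraries. The log2 fold change was -0.0042 (SE 0.04, 95% interval -0.10 to 0.09, adjusted p = 0.957, edgeR), and its sign turned without control replicate 2 and without IL-12 replicate 2. A difference beyond these bounds lay outside the interval, and a smaller one was not detectable here.

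Of the pro-survival genes, *Bcl2* and *Mcl1* rose and *Bcl2l1* did not pass. *Bcl2* (ENSMUSG00000057329, chr1:106538178-106714274, minus strand), which encodes the founding member of the family, was counted 448 and 465 times with saline and 566 and 538 times with IL-12. These were 23.6 and 24.6 CPM against 28.6 and 29.7 CPM, with no overlap. The rise was 20.8% (log2 fold change 0.27, SE 0.08, 95% interval 0.11 to 0.44, adjusted p = 0.0124, edgeR), with the fewest counts of the set. It was kept in 9 of 15 alternatives and lost in 6, among them the DESeq2 Wald test (0.27, adjusted p = 0.0991), with adjusted p-values up to 0.108. The 3 annotated genes that overlap *Bcl2* had 1 count each.

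*Mcl1* (ENSMUSG00000038612, chr3:95658788-95663176, plus strand), whose short-lived product restrains the effector BAK, had 278 CPM in both control libraries. The IL-12 libraries had 299 and 312 CPM, both above the controls. The log2 fold change was 0.14 (SE 0.03, adjusted p = 0.00501, edgeR), a rise of 9.87%, and the call was lost without IL-12 replicate 2 (0.11, adjusted p = 0.0638, edgeR). *Bcl2l1* (ENSMUSG00000007659, chr2:152780668-152831728, minus strand), which encodes BCL-XL, had 220 and 214 CPM in the control libraries and 235 and 223 CPM in the IL-12 libraries. The groups did not overlap, and the log2 fold change of 0.08 (SE 0.04) had an unadjusted p of 0.0475 and an adjusted p of 0.122 in edgeR's quasi-likelihood test. It passed in 0 of 15 alternatives.

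**Figure D3:**
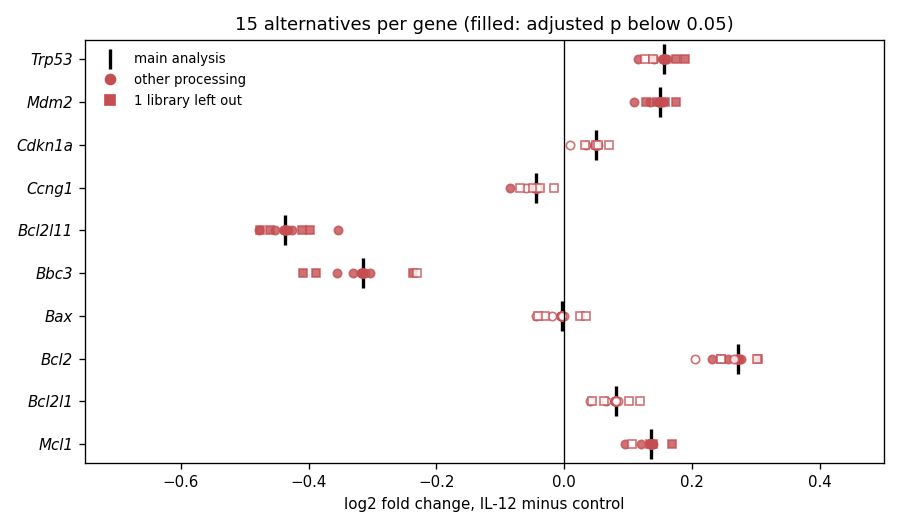
Log2 fold change (IL-12 minus control) of each gene under 15 alternatives, with a black bar at the value reported here, circles for other processing, squares for 1 library left out and filled symbols where adjusted p was below 0.05. *Bcl2l11* and *Mdm2* are filled throughout, the open symbols of *Bcl2*, *Bbc3*, *Trp53* and *Mcl1* show lost calls, and *Bax* lies on both sides of 0.

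Per gene length, in the deposited FPKM (the count over gene length and library size), the order of the mean levels in the control libraries ran from *Cdkn1a* (284) and *Ccng1* (284) through *Mdm2* (104), *Bax* (86.3), *Mcl1* (81.4), *Trp53* (50.1), *Bcl2l1* (47.4) and *Bbc3* (26.1) to *Bcl2l11* (4.97) and *Bcl2* (2.64). *Cdkn1a* and *Ccng1* were the only neighbours whose control libraries overlapped, at 283 and 285 FPKM against 288 and 279 FPKM. In the IL-12 libraries *Mcl1* (89.6 FPKM) stood before *Bax* (86.1 FPKM), with overlapping libraries, and the order was otherwise the same. Among the pro-survival genes *Mcl1* had the highest level per length and *Bcl2* the lowest in both groups.

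The ratio of *Bax* to *Bcl2* per gene length stood at 32.8 and 32.7 with saline and at 28.3 and 25.8 with IL-12, so the groups did not overlap. The means were 32.8 ± 0.05 and 27.0 ± 1.73 (SD, n = 2), and the IL-12 mean was 0.826 times the control mean. With 2 libraries in each group, the smallest two-sided p of an exact permutation test is 0.333, so the ratio was not tested further. *Bax* itself did not pass the test and the call of *Bcl2* was lost in 6 alternatives.

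**Figure D4:**
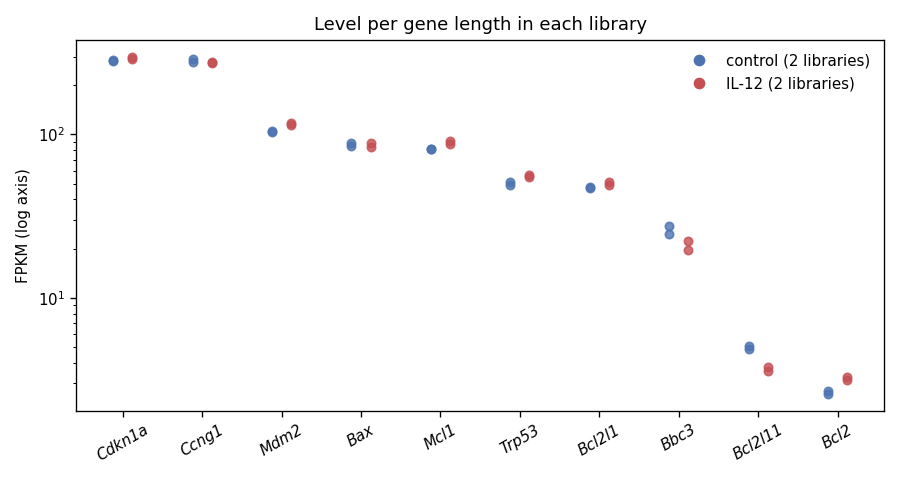
Deposited FPKM of each gene in each library on a log axis, ordered by the mean control level. *Cdkn1a* and *Ccng1* lie highest and *Bcl2l11* and *Bcl2* lowest. On this log axis the pair of libraries of a group lie close together for every gene, also for *Bbc3* with 24.65 and 27.46 FPKM in the control libraries.

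Beyond the 10 genes, *Bok*, *Bak1*, *Bid* and *Pmaip1* of the BCL2 family rose and *Bmf* fell. The other effectors were *Bok*, which went from 46.7 and 41.6 CPM to 70.9 and 69.3 CPM (log2 fold change 0.67, SE 0.06, adjusted p = 9.38e-08, edgeR) and *Bak1*, the partner of *Bax* in pore formation, which went from 67.5 and 73.3 CPM to 83.6 and 78.1 CPM (0.20, SE 0.05, adjusted p = 0.00892, edgeR). The call of *Bak1* was lost in 6 of 15 alternatives and that of *Bok* in 0. Of the 6 other BH3-only genes, 4 were tested, 2 rose, 1 fell and 1 did not pass, beside 30.5% of all genes tested called in either direction. *Bid*, which caspase-8 cleaves to link death receptors to mitochondria, rose from 45.4 and 48.8 CPM to 67.1 and 63.3 CPM (0.47, SE 0.06, adjusted p = 5.21e-06, edgeR).

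*Pmaip1*, the p53 target NOXA that binds MCL1, rose from 95.5 and 96.8 CPM to 107 and 114 CPM (log2 fold change 0.20, SE 0.05, adjusted p = 0.00312, edgeR), and its call was lost without IL-12 replicate 2 (0.16, adjusted p = 0.0575, edgeR). *Bmf*, a BH3-only gene whose product is tethered to the actin cytoskeleton, fell from 14.0 and 10.96 CPM to 6.56 and 5.91 CPM (-0.999, SE 0.15, adjusted p = 3.38e-05, edgeR), the largest change among the tested genes of the family. It lies at the 2-fold limit, and over the 15 alternatives it ranged from -1.17 (without control replicate 2) to -0.62 (on the log2(FPKM + 1) scale). It was past that limit in 7 of the 15, and the call at an adjusted p below 0.05 was kept in 15 of 15. So 3 BH3-only genes fell (*Bcl2l11*, *Bbc3* and *Bmf*), 2 rose (*Bid* and *Pmaip1*) and *Bad* did not pass (0.03, adjusted p = 0.783, edgeR), where 30.5% of all genes tested were called. Of the 5 other pro-survival genes, *Bcl2l2* alone was tested (0.01, adjusted p = 0.924, edgeR), and *Bcl2l10*, *Bcl2a1a*, *Bcl2a1b* and *Bcl2a1d* had 0 counts in every library, which allows up to 0.152 to 0.166 CPM. The last 3 are near-identical copies that may share reads. *Bik* and *Hrk* had 0 to 1 counts in each library and were not tested.

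Other p53 targets changed in both directions. Of 36 further targets, all of them tested, 8 rose, 9 fell and 19 did not pass, with a median log2 fold change of 0.02 beside -0.0022 over all genes tested. The 17 called stand beside the 30.5% of all genes tested and the 43.1% of genes of at least 20 CPM, and none passed the 2-fold limit. *Pmaip1* is counted here as well as among the BH3-only genes, and *Apaf1* here as well as in the list of the apoptosome and caspases. The named risers were *Epha2*, a receptor tyrosine kinase (log2 fold change 0.40, SE 0.04, adjusted p = 6.35e-08, edgeR), *Tigar*, which limits glycolysis (0.34, adjusted p = 0.0173, edgeR), and *Aen*, an apoptosis-enhancing nuclease (0.29, adjusted p = 8.67e-06, edgeR). *Epha2* went from 449 and 489 CPM to 623 and 614 CPM.

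The named targets that fell were *Sesn1*, a stress-induced inhibitor of mTORC1 (log2 fold change -0.56, SE 0.09, adjusted p = 0.000113, edgeR), *Gdf15*, a secreted stress cytokine (-0.49, SE 0.04, adjusted p = 2.31e-08, edgeR), and *Ddb2*, a DNA damage sensor of nucleotide excision repair (-0.46, SE 0.15, adjusted p = 0.0241, edgeR). *Sesn1* went from 24.5 and 23.5 CPM to 17.0 and 15.6 CPM, and *Gdf15* from 385 and 415 CPM to 295 and 275 CPM. The calls of *Tigar* and *Ddb2* were each lost in 7 of 15 alternatives, while those of *Epha2*, *Aen*, *Sesn1* and *Gdf15* were kept in 15 of 15.

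Among 19 regulators and relatives of p53, 18 were tested, 0 rose, 4 fell and 14 did not pass, beside 30.5% of all genes tested called in either direction and 14.4% lower, with a median log2 fold change of -0.06. *Mdm4*, the partner of *Mdm2* that masks the activation domain of p53, fell from 258 and 247 CPM to 196 and 212 CPM (-0.31, SE 0.04, adjusted p = 1.19e-05, edgeR), opposite to the rise of *Mdm2*. *Hipk2*, a kinase that phosphorylates p53, fell as well (-0.31, SE 0.05, adjusted p = 0.000114, edgeR). The fall of the checkpoint kinase *Chek2* (-0.19, adjusted p = 0.0475, edgeR) was lost in 8 of 15 alternatives. The relative *Trp73* had 4 to 6 counts in each library and was not tested.

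**Figure D5:**
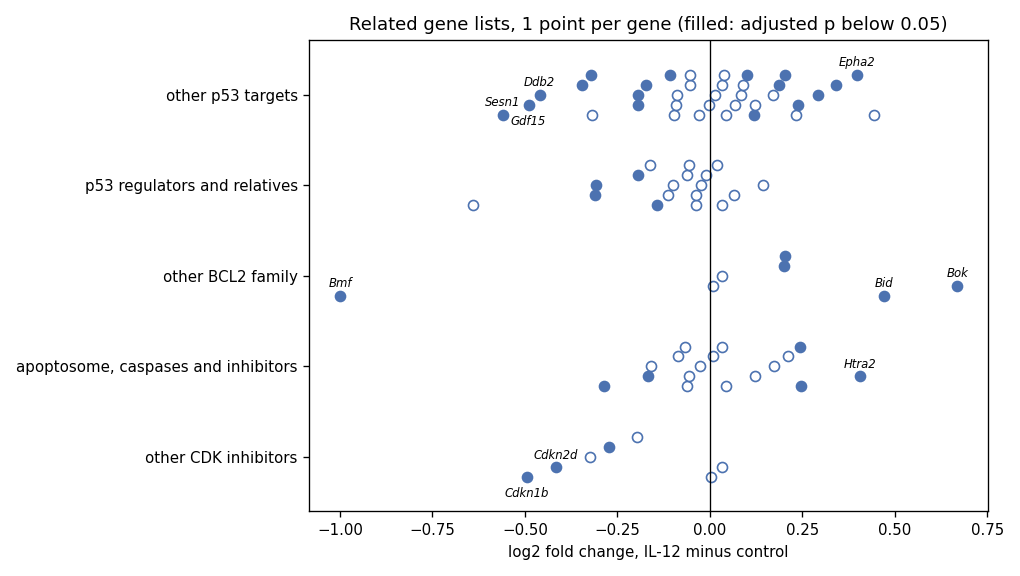
Log2 fold change (IL-12 minus control) of the tested genes of 5 related lists, 1 point per gene, filled where adjusted p was below 0.05, with heights spread only for legibility. The other p53 targets spread to both sides of 0, the filled points of the p53 regulators lie left of 0, and *Bok* (0.67) and *Bmf* (-0.999) mark the ends of the other BCL2 family.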

How the data were processed

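RNA-sequencing of 4 libraries of a mouse podocyte line was used. The authors deposited raw counts per gene, whole numbers without normalization, and FPKM values, which equal the count per kilobase of deposited gene length and library total times 1 factor per library (0.985 to 1.02). The submitters' processing notes name HISAT2, StringTie and mm9, and the parameters are not given in the sources used here. The deposited coordinates equal GENCODE M21 (GRCm38) for 98.3% of 54409 shared genes and for all 10 members, so GRCm38 was used.

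Gene counts were tested with edgeR 4.0.16 under R 4.3.3 (filterByExpr with a minimum of 10 counts and 15 in total, TMM scaling, quasi-likelihood test, Benjamini-Hochberg adjustment), which kept 14095 genes. limma 3.58.1 and DESeq2 1.42.0 served as alternatives, with 1 or 0.1 added to FPKM before log2, and matplotlib 3.10.9 under Python 3.11.15 drew the figures. The standard error (SE) of a log2 fold change is its size over the root of its F value, and CPM was TMM-scaled. The tests were tested on simulated data.

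The members and the lists were chosen with earlier results of these data known. Named genes are the 10 members, up to 3 called genes in each direction from each list with the largest change, and BCL2 family genes below the filter. Some genes that this rule picks are not reported here. The labels do not say that the libraries came from separate cultures, so p-values measure only the spread between these samples, which may be technical. Floors cover counting error only. Groups came from the sample titles, and the dose and time from the labels and the study's methods. Both groups hold replicates 1 and 2. The deviations of same-numbered libraries from their group means had a correlation of -0.03 across genes, and the main design had no block.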

Additional observations from a re-analysis of the deposited data

How the results depend on the processing

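With 2 libraries per group the p-values lean on the spread that edgeR shares between genes, and differences of a few percent in genes of low counts cannot be resolved. Of the 10 genes, 4 were called higher and 2 lower. With no filter on low counts 4 were higher and 1 lower, and with 1 library left out the higher calls numbered 2 to 3 and the lower calls 1 to 2. With 1 library left out the lone library of a group is assumed to vary like the others. None of the 10 passed a 1.5-fold limit, and 3 higher and 2 lower calls were kept at an adjusted p below 0.01. The log2 fold change of *Bax* ranged from -0.042 to 0.033 with 1 library left out, turning to 0.024 without control replicate 2 and to 0.033 without IL-12 replicate 2. The cause of these changes was not tested.

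Of the other p53 targets, 17 were called, against 10 with the DESeq2 Wald test, 10 with no filter and 10 to 15 with 1 library left out. Of the p53 regulators, 4 were called, against 7 with total counts, 2 with the DESeq2 Wald test, 2 with no filter, 2 with limma on log2(FPKM + 1), 2 with limma on log2(FPKM + 0.1) and 2 to 3 with 1 library left out. Of the 2 effectors, 1 was called with the DESeq2 Wald test, 1 with no filter, 1 with each FPKM scale and 1 to 2 with 1 library left out. Of the apoptosome list, 3 to 4 were called with 1 library left out, against 5.

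Over all genes 52.8% of calls were higher, and 40.6% with total counts, where the median log2 fold change was -0.04. The genes past the 2-fold limit numbered 227, against 107 with the DESeq2 Wald test, 133 with no filter, 38 and 141 on the 2 FPKM scales (1 and 0.1 added) and 144 to 254 with 1 library left out. Same-numbered libraries share only a number. With a replicate block, 4 of the 10 genes were higher and 2 lower, and 2272 genes were higher and 2069 lower in all. The share of genes called among those of at least 20 CPM (43.1%) was added after seeing the data.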

Other observations

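Downstream of the BCL2 family, 17 genes of the apoptosome, the caspases and their inhibitors were tested, of which 3 rose, 2 fell and 12 did not pass, beside 30.5% of all genes tested called in either direction, with a median log2 fold change of 0.01. *Htra2*, a mitochondrial protease, rose from 37.7 and 38.5 CPM to 50.5 and 50.6 CPM (log2 fold change 0.41, SE 0.06, adjusted p = 4.26e-05, edgeR's quasi-likelihood test). *Cflar*, which encodes the caspase-8 inhibitor c-FLIP, rose (0.25, adjusted p = 0.000166, edgeR), as did *Cycs*, cytochrome c (0.24, adjusted p = 0.000575, edgeR). The initiator *Casp9* fell (-0.29, adjusted p = 0.0314, edgeR), and its call was lost in 7 of 15 alternatives.

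Among the 7 other inhibitors of cyclin-dependent kinases, all tested, 0 rose, 3 fell and 4 did not pass, beside 30.5% of all genes tested called in either direction and 14.4% lower, with a median log2 fold change of -0.27, while *Cdkn1a* did not pass. *Cdkn1b*, p27, went from 90.1 and 87.1 CPM to 62.7 and 63.0 CPM (-0.50, SE 0.05, adjusted p = 3.45e-07, edgeR). *Cdkn2d* (-0.42, adjusted p = 0.00138, edgeR) and *Cdkn2c* (-0.27, adjusted p = 0.000208, edgeR) fell as well, and the calls of these 3 genes were kept in 15 of 15 alternatives. *Cdkn2a* had 166 and 183 CPM in the control libraries and 186 and 171 CPM in the IL-12 libraries, which overlap. Its p16 and p19ARF transcripts are counted as 1 gene, which is listed among the regulators and relatives of p53 as well.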
